A study of Sorghum bicolor with 64 samples.

Results

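Sobic.003G131600 and Sobic.003G131800 are neighbouring sorghum genes that the deposited tables describe alike, as permeases of the major facilitator superfamily. They are 2 of the 16942 genes in the stem table and 2 of the 16386 in the leaf table, and both are in both. Their identifiers place them on chromosome 3, and in either table no measured gene lies between them. They were chosen on measured values: Sobic.003G131600 because its stem transcript level differed with head removal, genotype and day, and both because their stem level is higher in dd plants. Those comparisons, and genotype in leaves, are given below as descriptions without p-values. Treatment and day were tested for both genes in leaves and for Sobic.003G131800 in stems. The interactions were tested too, and how the levels of the pair correlated within groups.

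Major facilitators are secondary carriers, membrane proteins that move small solutes such as sugars, nitrate, phosphate or organic acids along or against a gradient, often with a proton. In plants some sit in the plasma membrane and others in the tonoplast, the membrane around the vacuole, where sorghum stem parenchyma stores its sucrose. The study places the product of Sobic.003G131600 in the tonoplast and calls its activity unknown, naming a sugar and a complex of zinc with its ligand as possible cargo. For Sobic.003G131800 no cargo is known here.

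RNA was sequenced from field-grown near-isogenic lines (NILs) that differ at the D locus. dd plants carry a truncated SbNAC074A and DD plants a functional one, a NAC transcription factor that switches on the death of stem parenchyma. In each genotype heads were removed at anthesis (head removal) or left on (control), and tissue was taken 10 or 3 d later. Stem samples came from inside the fourth internode, counted from above, once its outer layer had been cut away, and leaf samples from the middle of the second leaf, not counting the flag leaf. The 4 groups of dd plants and the 4 of DD plants hold 3 or 4 samples each in stems (15 dd and 14 DD, 29 in all) and 3 each in leaves (12 dd and 12 DD, 24 in all). A locus in 1 pair of NILs cannot be told apart from other segments that the pair may not share.

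Levels are TPM, each transcript's share of a library scaled for length, as the authors deposited them. TPM keeps no depth, so precision is known only from the spread between samples, and whether the samples of a group were separate plants is not stated for the RNA. Additive models of treatment, genotype and day were fitted with limma to log2(TPM + 1) for all genes of an organ. A gene passed at a Benjamini-Hochberg adjusted p under 0.01 over all genes of that organ, and every difference below is on the log2(TPM + 1) scale, which understates changes of low genes. Within a group, pairs of stem samples correlated over all genes at 0.93 to 0.99 and pairs of leaf samples at 0.93 to 0.98. Replicates 3 and 4 of dd control stems at 10 d correlated with replicates 1 and 2 at 0.93 to 0.96, while replicates 1 and 2 correlated at 0.99. In dd stems 10 d after head removal replicates 1 and 3 correlated at 0.989 and 2 and 4 at 0.985, against 0.955 to 0.963 across. In DD stems 10 d after head removal replicates 1 and 4 correlated at 0.986, and with replicate 2 at 0.957 and 0.936. In DD leaves 3 d after head removal replicates 2 and 3 correlated at 0.974, and with replicate 4 at 0.960 and 0.958. SbXCP1 (Sobic.007G172100), a protease of dying parenchyma, had 0 to 0.36 TPM in dd stems (median 0.10), against 0.07 to 84.1 TPM in DD stems (median 18.1), the direction the genotype labels imply, with an overlap at the low end. In leaves it had 0.19 to 34.7 TPM in dd (median 9.57) and 0.09 to 41.3 TPM in DD (median 1.65). It therefore does not check the leaf labels. SbNAC074A (Sobic.006G147400) was measured in stems only, at 0.36 to 53.9 TPM in dd and 0.39 to 32.1 TPM in DD, which does not separate the genotypes, and a truncated copy can still be transcribed.

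The 2 neighbours differed in the organ where they were abundant. In stems Sobic.003G131800 averaged 22.8 ± 21.5 TPM (SD, n = 29) and exceeded Sobic.003G131600, at 4.26 ± 3.18 TPM, in 28 of 29 samples, with a median ratio of 4.87. In leaves Sobic.003G131600 averaged 43.4 ± 10.95 TPM (SD, n = 24) and exceeded Sobic.003G131800, at 5.30 ± 4.44 TPM, in 24 of 24 samples, where the ratio of Sobic.003G131800 to its neighbour had a median of 0.10. Sobic.003G131600 thus lay above 13.0% of the genes in the stem table by its mean, and above 73.3% of those in the leaf table. Sobic.003G131800 lay above 53.8% in stems and 18.1% in leaves. The stem and leaf tables were normalised separately, so these levels are set side by side without a test. How reads shared by the 2 genes would have been assigned is not given in the sources used here.

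**Figure D1:**
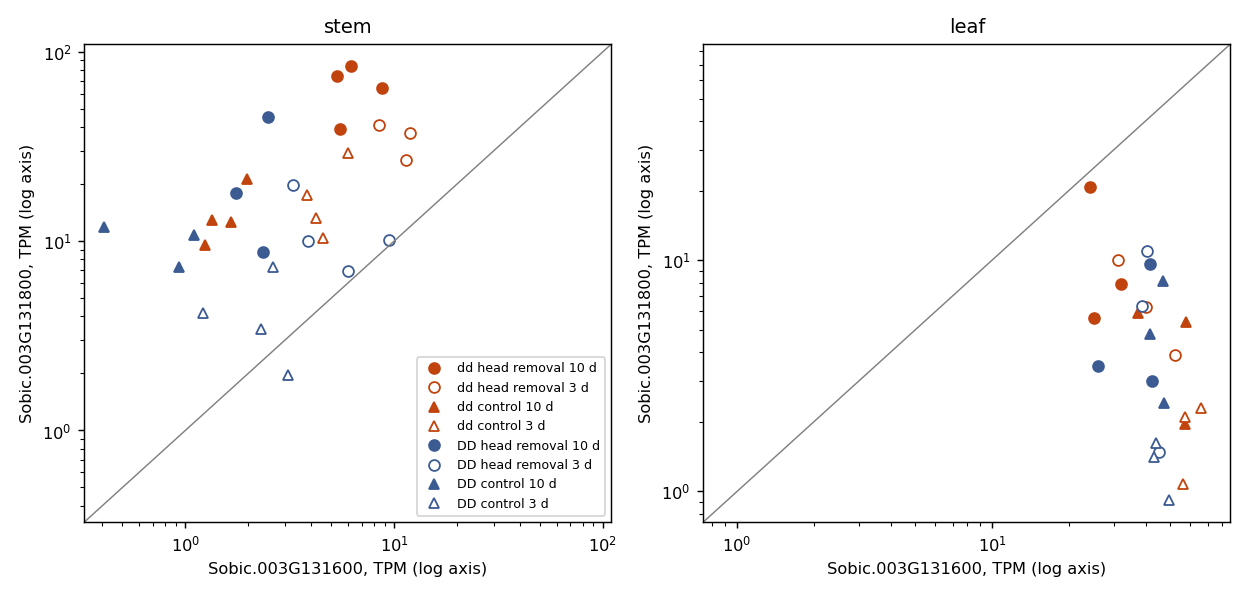
TPM of Sobic.003G131800 (y axis, log) against Sobic.003G131600 (x axis, log) in each of 29 stem and 24 leaf samples, with the grey line where both are equal. Colour gives the genotype, circles are head removal and triangles control, filled symbols 10 d and open symbols 3 d. Stem samples lie above the line in 28 of 29 cases, and all 24 leaf samples lie below it.

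Genotype in stems is the comparison that chose the pair. Sobic.003G131600 had 6.22, 5.33, 8.72 and 5.51 TPM in dd plants 10 d after head removal, against 1.76, 2.49 and 2.36 TPM in DD plants. At 3 d after head removal it had 8.47, 11.9 and 11.4 TPM in dd, against 9.46, 3.26, 6.05 and 3.88 TPM in DD. The dd samples lay above all DD samples at 10 d, and at 3 d 1 DD sample reached into the dd range. In control stems it had 1.66, 1.25, 1.98 and 1.35 TPM in dd and 1.10, 0.94 and 0.41 TPM in DD at 10 d. At 3 d the controls had 4.54, 4.24, 3.81 and 6.03 TPM in dd and 1.21, 2.30, 3.12 and 2.64 TPM in DD. Both control comparisons were free of overlap, and the 4 ratios of dd to DD means ran between 1.87 and 2.93. Over all stem samples the dd minus DD difference was 0.85 ± 0.13 (SE).

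Sobic.003G131800 had 84.6, 74.3, 64.5 and 39.1 TPM in dd stems 10 d after head removal, the highest group of all, against 17.9, 45.5 and 8.77 TPM in DD stems. At 3 d after head removal it had 41.2, 37.0 and 26.8 TPM in dd, against 10.2, 19.9, 6.92 and 10.1 TPM in DD. The groups overlapped at 10 d, where 1 DD sample (replicate 2) lay above the lowest dd sample, and did not overlap at 3 d. In control stems it had 12.55, 9.55, 21.2 and 13.0 TPM in dd and 10.8, 7.30 and 11.8 TPM in DD at 10 d. At 3 d the controls had 10.4, 13.2, 17.6 and 29.2 TPM in dd and 4.17, 3.44, 1.96 and 7.27 TPM in DD. The 10 d controls overlapped and were the pair of groups nearest to each other, with a ratio of means of 1.41, while the 3 d controls lay apart with a ratio of 4.18. The dd minus DD difference over all stems was 1.40 ± 0.23 (SE). In the same fit 5.17% of 16942 genes were called higher and 12.7% lower in dd stems, and nothing is read from that beside genes chosen for this contrast.

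**Figure D2:**
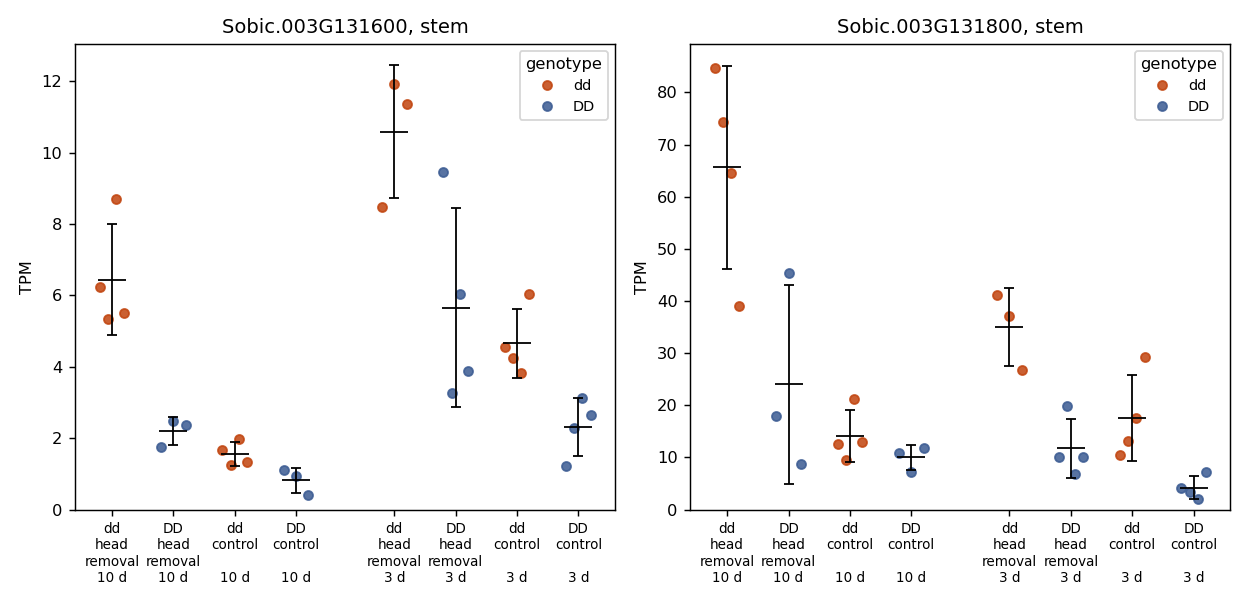
TPM of Sobic.003G131600 (left) and Sobic.003G131800 (right) in stems, 1 point per sample, with group mean and SD as black marks. dd groups stand left of DD groups, head removal left of control and 10 d left of 3 d. Sobic.003G131600 is highest in dd 3 d after head removal (10.6 ± 1.86 TPM) and Sobic.003G131800 in dd 10 d after head removal (65.6 ± 19.5 TPM).

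Head removal went with a higher level of both genes in stems. For Sobic.003G131600, chosen on this contrast too, every head removal sample lay above every control of the same genotype and day in all 4 comparisons. Its ratios of means were 4.14 in dd and 2.70 in DD at 10 d, and 2.27 in dd and 2.44 in DD at 3 d. The additive difference was 1.11 ± 0.12 (SE). Sobic.003G131800 was not chosen on treatment and passed the test, rising by 1.38 ± 0.23 (SE) on the log2 scale (adjusted p = 1.45e-05, limma). Its mean was higher after head removal in 4 of 4 combinations, with ratios of 4.67 in dd and 2.41 in DD at 10 d and 1.99 in dd and 2.79 in DD at 3 d. Its samples were free of overlap in dd at 10 d only, where head removal gave 39.1 to 84.6 TPM, against 9.55 to 21.2 TPM in controls. With head removal 14.4% of stem genes rose and 23.5% fell, and median-of-ratios scaling moved the share of rises among these calls to 50.8%, against 38.0%.

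Day gave the neighbours opposite signs. Sobic.003G131600, chosen on day as well, was lower at 10 d than at 3 d in each of the 4 combinations, with ratios of means of 0.33 to 0.61 and no overlap in 3 of them. Its difference was -0.91 ± 0.13 (SE). Sobic.003G131800 had a difference of 0.60 ± 0.23 (SE) in the other direction, which missed the threshold (adjusted p = 0.0305, limma). Its 10 d mean was above its 3 d mean in 3 of 4 combinations, and the 4 log2 differences ran between -0.26 in dd controls and 1.15 in DD controls. Of all stem genes 8.84% were higher and 23.7% lower at 10 d.

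Ordered by level, the stem groups of Sobic.003G131600 ran down through dd head removal at 3 d (10.6 TPM), dd head removal at 10 d (6.45), DD head removal at 3 d (5.66), dd control at 3 d (4.66), DD control at 3 d (2.32), DD head removal at 10 d (2.20), dd control at 10 d (1.56) and DD control at 10 d (0.82 TPM). Only dd control at 3 d and dd control at 10 d lay free of the next group down. For Sobic.003G131800 the order was dd head removal at 10 d (65.6 TPM), dd head removal at 3 d (35.0), DD head removal at 10 d (24.0), dd control at 3 d (17.6), dd control at 10 d (14.1), DD head removal at 3 d (11.7), DD control at 10 d (9.99) and DD control at 3 d (4.21 TPM). Of groups next to each other in this order, only the lowest 2 were free of overlap.

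Markers of green tissue moved with some of these values. The 17 listed leaf blade genes, which encode light-harvesting proteins, the small subunit of Rubisco and phosphoenolpyruvate carboxylase, summed to 1826 to 10088 TPM in stems and 11325 to 37492 TPM in leaves. Shares called over all stem genes were 14.4% higher and 23.5% lower with head removal. They were 5.17% and 12.7% in dd, and 8.84% and 23.7% at 10 d. With head removal 12 of the 17 markers rose in stems and none fell, with a median difference of 0.67 beside -0.06 over all genes. Their sum had a median of 6823 TPM (3607 to 10088) after head removal and 4208 TPM (1826 to 8065) in controls. At 10 d 12 of 17 were lower than at 3 d and none higher, with a median sum of 4416 TPM (1826 to 8348) at 10 d and 7077 TPM (3621 to 10088) at 3 d. With genotype 1 of 17 passed, the median difference was 0.005, and the median sum was 4877 TPM (2313 to 10088) in dd and 5677 TPM (1826 to 9329) in DD. Sobic.003G131600 tracked that sum across stem samples, with r = 0.88 in dd (n = 15) and 0.77 in DD (n = 14), while for Sobic.003G131800 r was 0.60 in dd and -0.04 in DD. With the sum of 3 phloem markers r was 0.50 in dd and 0.77 in DD for Sobic.003G131600, and 0.26 in dd and -0.23 in DD for Sobic.003G131800. These are descriptions, and samples of a group share its treatment and day. The part of green tissue in the stem values was not tested, and in bulk samples more cells of a type and more RNA per cell cannot be told apart.

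Of the 3 phloem markers, SbSWEET1A, a sugar facilitator, rose with head removal by 1.51 ± 0.20 (SE, adjusted p = 6.01e-07, limma), and the sum of the 3 was 408 to 1465 TPM after head removal and 328 to 880 TPM in controls. The study detected SbSWEET1A transcript in sclerenchyma and pith parenchyma too, so it does not mark phloem alone. At 10 d SbSWEET1A was higher (1.26 ± 0.20, adjusted p = 1.53e-05) and SbSUT1 lower (-0.89 ± 0.14, adjusted p = 2.03e-05, limma). In dd 2 of the 3 phloem markers were lower (1 with median-of-ratios scaling, and 1 without dd control 10 d replicates 3 and 4). Their sum was 328 to 879 TPM in dd and 457 to 1465 TPM in DD. For comparison, 12.7% of all stem genes were called lower in dd and 5.17% higher. At 10 d 8.84% were higher and 23.7% lower, and with head removal 14.4% and 23.5%. The 2 cell wall markers measured in stems summed to 1.47 to 189 TPM and passed no comparison in limma, with an unadjusted p under 0.05 for 0 with treatment, 0 with genotype and 2 with day. The pair that marks dying tissue, SbXCP1 and an endonuclease, summed to 46.7 to 275 TPM after head removal and 80.6 to 333 TPM in control stems. The endonuclease, Sobic.003G087200, fell with head removal (-0.83 ± 0.23, adjusted p = 0.00353), and SbXCP1 (Sobic.007G172100) was lower in dd (-3.31 ± 0.51, adjusted p = 6e-05, limma). With genotype the endonuclease lay on the other side of 0 and was not called. The sum of these 2 markers was 46.7 to 319 TPM in dd and 61.2 to 333 TPM in DD stems. The part of these cells was not tested either.

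In leaves genotype, the contrast behind the choice of the pair in stems, gave little. The dd minus DD difference was 0.02 ± 0.11 (SE) for Sobic.003G131600 and 0.33 ± 0.28 (SE) for Sobic.003G131800, so the description of the pair as higher in dd rests on stems. For Sobic.003G131600 dd leaves were above DD leaves in the 3 d controls (55.95, 57.1 and 66.2 TPM, against 43.2, 49.3 and 43.9 TPM), and the groups overlapped in the other 3 comparisons. For Sobic.003G131800 they overlapped in all 4. Of 16386 leaf genes 4.7% were called higher and 0.738% lower in dd.

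Head removal lowered Sobic.003G131600 in leaves, opposite to its direction in stems. In dd it had 32.1, 25.1 and 24.3 TPM 10 d after head removal, against 37.3, 57.2 and 57.5 TPM in controls. At 3 d it had 51.96, 31.3 and 40.2 TPM after head removal, against 55.95, 57.1 and 66.2 TPM in controls. Both dd comparisons were free of overlap. In DD it had 42.4, 26.0 and 41.5 TPM after head removal and 47.0, 47.2 and 41.5 TPM in controls at 10 d. At 3 d the DD leaves had 40.5, 38.8 and 45.2 TPM after head removal and 43.2, 49.3 and 43.9 TPM in controls. The DD groups overlapped at both days. The additive difference was -0.47 ± 0.11 (SE, adjusted p = 0.00464, limma), which passed, while 4.32% of leaf genes rose and 7.05% fell with head removal. The call was near the threshold: it was lost without leaf dd head removal 3 d replicate 2 (adjusted p = 0.0104) and without leaf dd head removal 10 d replicate 2 (adjusted p = 0.0101), and over all single omissions the adjusted p was 0.0028 to 0.0104. It was lost with a replicate block too (-0.41 ± 0.11, adjusted p = 0.0113). With DD leaf replicates 2 and 3 from 3 d after head removal both left out, which left a single sample in that group, the difference was -0.47 ± 0.12 (SE). No call is read from that fit.

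Sobic.003G131800 pointed the other way in leaves. In dd it had 7.85, 5.65 and 20.6 TPM 10 d after head removal, against 5.91, 1.96 and 5.40 TPM in controls. At 3 d it had 3.89, 10.0 and 6.29 TPM after head removal, against 1.07, 2.10 and 2.29 TPM in controls. The dd groups overlapped at 10 d and not at 3 d. In DD it had 3.01, 3.47 and 9.58 TPM after head removal and 8.15, 2.40 and 4.77 TPM in controls at 10 d. At 3 d the DD leaves had 10.9, 6.34 and 1.49 TPM after head removal and 1.42, 0.92 and 1.61 TPM in controls. Both DD comparisons overlapped. The additive difference was 0.98 ± 0.28 (SE, adjusted p = 0.013, limma), just short of the threshold, with the higher mean after head removal in 4 of 4 combinations. It passed without leaf DD control 10 d replicate 1 (1.09, adjusted p = 0.00611), without leaf DD head removal 3 d replicate 4 (1.08, adjusted p = 0.0061), or without leaf DD head removal 10 d replicate 1 (1.08, adjusted p = 0.00677) or replicate 2 (1.07, adjusted p = 0.00959). The other single omissions did not pass, and over all 24 the adjusted p was 0.0061 to 0.0267 (limma). With DD leaf replicates 2 and 3 from 3 d after head removal both left out, which left a single sample in that group, the difference was 0.76 ± 0.27 (SE). No call is read from that fit. Among all leaf genes 4.32% rose and 7.05% fell with head removal. The leaf blade markers had no member past the test with treatment in leaves (limma, 4 of 17 at an unadjusted p under 0.05). Their median difference was -0.25 beside -0.02 over all genes. Their sum had a median of 17431 TPM (11325 to 31227) after head removal and 21869 TPM (13729 to 37492) in controls. Of the pair that marks dying tissue SbXCP1 (Sobic.007G172100) rose with head removal in leaves by 2.53 ± 0.46 (adjusted p = 0.000851, limma), and their sum was 11.7 to 62.1 TPM after head removal and 6.95 to 23.4 TPM in controls. Across leaf samples Sobic.003G131800 ran against the leaf blade sum, with r = -0.57 in dd and -0.87 in DD, and against the phloem sum, with r = -0.71 in both genotypes. For Sobic.003G131600 in leaves r was 0.46 in dd and 0.31 in DD with the leaf blade sum, and 0.71 in dd and 0.49 in DD with the phloem sum (n = 12 each). The part of these markers in the leaf values was not tested.

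Day gave no call in leaves for either gene. The difference between 10 d and 3 d was -0.26 ± 0.11 (SE, adjusted p = 0.0718, limma) for Sobic.003G131600 and 0.67 ± 0.28 (SE, adjusted p = 0.0615, limma) for Sobic.003G131800. The signs were those of the stem, though Sobic.003G131600 overlapped between the days in all 4 leaf combinations and Sobic.003G131800 in 3 of 4. The exception was the DD controls, at 8.15, 2.40 and 4.77 TPM at 10 d, against 1.42, 0.92 and 1.61 TPM at 3 d. In leaves 17.8% of genes were higher and 3.69% lower at 10 d, and the median gene stood at 0.09, which median-of-ratios scaling moved to -0.01. Of the leaf blade markers 1 of 17 fell and none rose, with median sums of 17112 TPM (11325 to 25027) at 10 d and 24690 TPM (13201 to 37492) at 3 d.

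**Figure D3:**
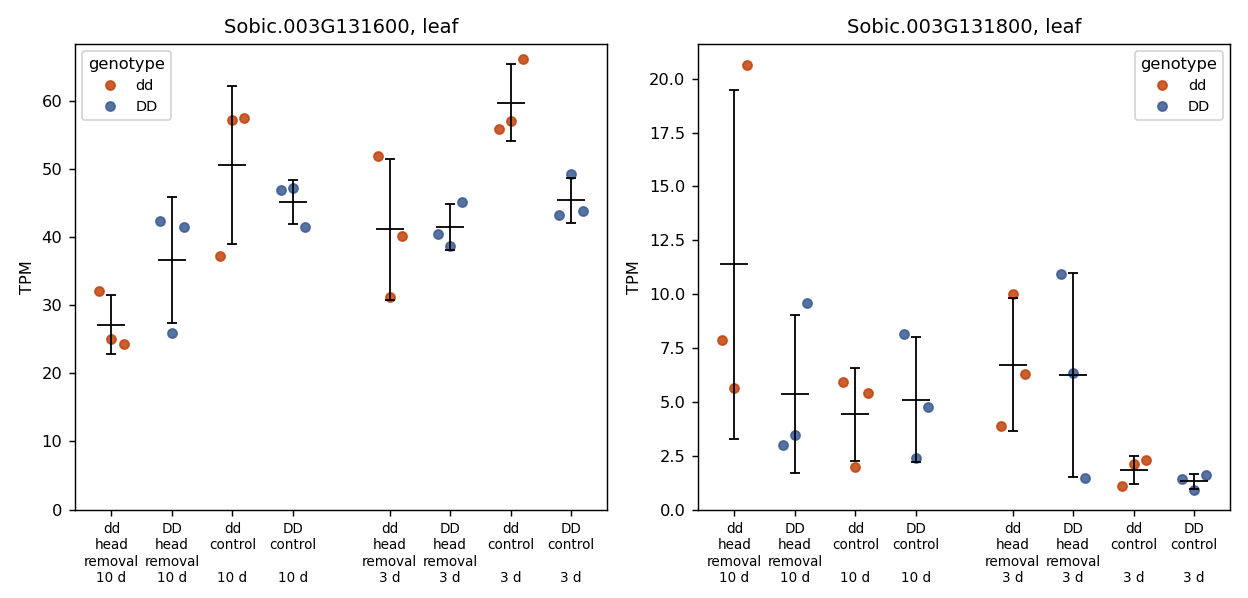
TPM of Sobic.003G131600 (left) and Sobic.003G131800 (right) in leaves, drawn as in the stem plot with 3 samples per group. Sobic.003G131600 is lowest in dd 10 d after head removal (27.2 ± 4.31 TPM), the group in which Sobic.003G131800 is highest (11.4 ± 8.09 TPM).

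In leaves the groups of each gene formed 1 continuous range. Sobic.003G131600 ran between 59.8 ± 5.62 TPM in dd controls at 3 d and 27.2 ± 4.31 TPM in dd 10 d after head removal (SD, n = 3 each), and each group overlapped the next in the order. Sobic.003G131800 ran between 11.4 ± 8.09 TPM in dd 10 d after head removal and 1.32 ± 0.36 TPM in DD controls at 3 d (SD, n = 3 each), again with an overlap at each step.

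No interaction passed for either gene. Those in stems use the same samples as the choice of the pair, though not the same contrasts. In leaves the treatment effect on Sobic.003G131600 was -0.86 in dd and -0.33 in DD at 10 d, and -0.55 in dd and -0.13 in DD at 3 d. The difference between genotypes was -0.48 ± 0.20 (SE), with an unadjusted p of 0.0262 and an adjusted p of 0.999 (limma). In stems the treatment effect on Sobic.003G131600 differed between dd and DD by 0.39 ± 0.25 (SE, adjusted p = 0.766, limma) and that on Sobic.003G131800 by 0.48 ± 0.42 (SE, adjusted p = 0.837, limma). The genotype difference of Sobic.003G131800 in stems was smaller at 10 d than at 3 d by the estimate, -0.67 ± 0.42 (SE, adjusted p = 0.588, limma). Of all stem genes 0% passed for treatment by genotype, 0.0472% for treatment by day and 0.0059% for genotype by day, and of leaf genes 0% in all 3. At an unadjusted p under 0.05 these numbered 1173, 2381 and 1794 genes in stems and 624, 1431 and 1237 in leaves. The standard errors of the pair's interactions ran up to 0.55, that of Sobic.003G131800 in leaves.

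**Figure D4:**
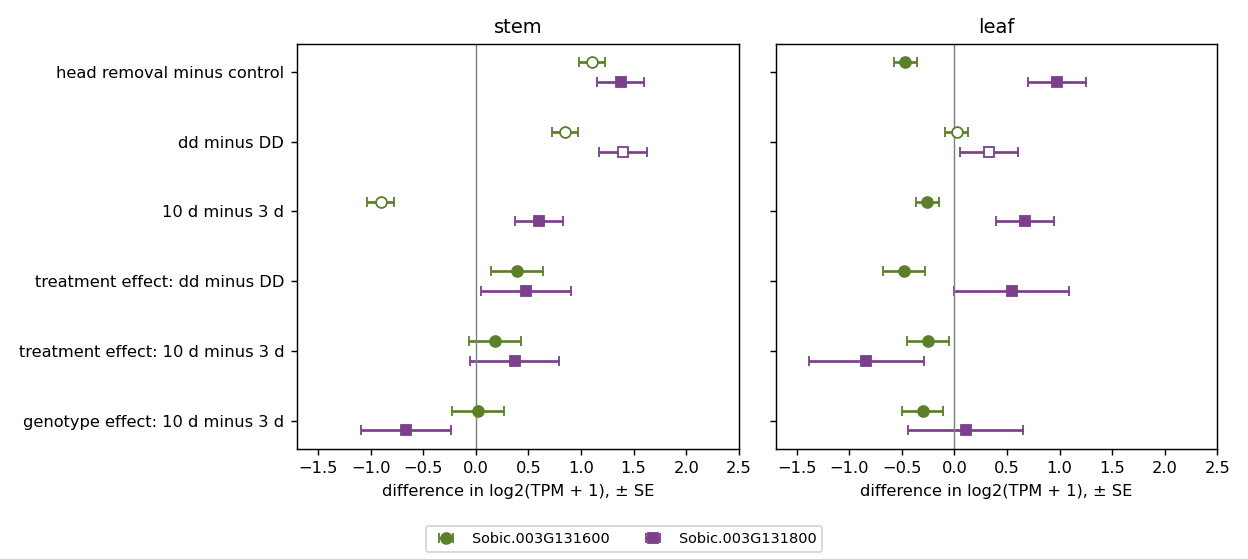
Differences in log2(TPM + 1) with their standard errors (limma) for Sobic.003G131600 (circles) and Sobic.003G131800 (squares) in stems (left) and leaves (right). The upper 3 rows are additive effects and the lower 3 interactions. Open symbols mark comparisons that were not tested: those that chose the genes, and genotype in leaves. Head removal raises Sobic.003G131800 by 1.38 in stems, and Sobic.003G131600 lies at -0.47 in leaves.

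Within groups, as deviations from group means on the log2 scale, the pair showed no relation past the test. There r was 0.38 in dd stems (rho 0.20, n = 15), -0.26 in DD stems (rho -0.24, n = 14), -0.52 in dd leaves (rho -0.51, n = 12) and -0.04 in DD leaves (rho -0.18, n = 12), and the permutation p adjusted over these 4 correlations was 0.448 to 0.938 for r and 0.65 for rho. Over all samples of a genotype r also holds the differences between treatments and days, which in stems chose Sobic.003G131600, so it is given without a test. It was 0.66 in dd stems (rho 0.72), -0.02 in DD stems (rho -0.08), -0.82 in dd leaves (rho -0.77) and -0.23 in DD leaves (rho -0.58). Without the 2 samples farthest from the median of Sobic.003G131600, r was 0.54 in dd stems and -0.83 in dd leaves.

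Calls with genotype were few among the measured genes close to the pair in stems, and their counts stood near the shares over all genes. Within 20 identifier steps on either side 20 other genes were measured in stems, and 0 rose and 3 fell in dd, beside 5.17% and 12.7% of all genes. The 3 were Sobic.003G132500, a subtilisin-like protease (-1.06 ± 0.19, adjusted p = 0.000215), Sobic.003G131100, a DOF factor of the cycling type (-0.55 ± 0.11, adjusted p = 0.000987), and Sobic.003G130500, a presenilin (-0.27 ± 0.06, adjusted p = 0.00137, limma throughout). The median of the 20 was -0.04 beside -0.06 over all genes, and 7 of 20 had an unadjusted p under 0.05. Median-of-ratios scaling gave 1 higher and 3 lower with a median of 0.03, and quantile normalisation 1 and 2. The measured genes next to the pair are Sobic.003G131400 in stems, Sobic.003G131500 in leaves and Sobic.003G132000 in both, and the first and the last of these did not pass in stems. Within 50 steps 58 genes were measured, of which 2 rose and 11 fell. In leaves 0 of 20 passed with genotype (limma, 5 of 20 at an unadjusted p under 0.05), beside 4.7% higher and 0.738% lower in dd over all leaf genes. Of these 20 leaf differences 16 lay above 0, with a median of 0.13 beside 0.03 over all genes.

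**Figure D5:**
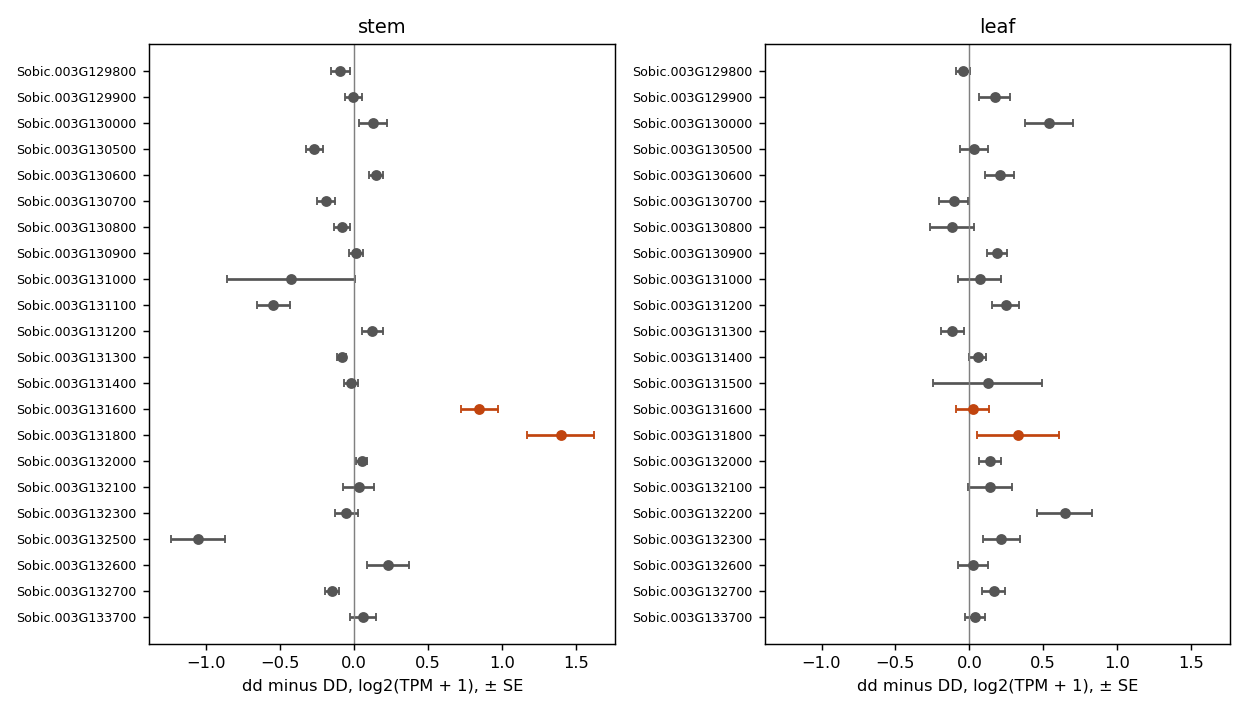
Difference dd minus DD in log2(TPM + 1) with its standard error for the pair (orange) and the 20 other measured genes within 20 identifier steps (grey), in identifier order from top to bottom, in stems (left) and leaves (right). In stems the pair stands at 0.85 and 1.40, and Sobic.003G132500 lies at -1.06.

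With head removal 4 of these 20 stem neighbours rose and 4 fell, beside 14.4% and 23.5% of all stem genes, with a median of 0.01. Sobic.003G132600, a plastid ribosomal protein (1.29 ± 0.14, adjusted p = 3.9e-08), and Sobic.003G132100, a magnesium-protoporphyrin cyclase of chlorophyll synthesis (0.38 ± 0.10, adjusted p = 0.0034), rose, and the DOF factor Sobic.003G131100 fell by 0.68 on the log2 scale (adjusted p = 1.94e-05, limma). The subtilisin-like Sobic.003G132500 was lower at 10 d in stems (-1.12 ± 0.19, adjusted p = 2.67e-05, limma). With day 2 of the stem neighbours were higher and 4 lower at 10 d, beside 8.84% and 23.7% of all stem genes. That balance turned with the settings, to 5 higher and 2 lower with median-of-ratios scaling, 5 and 3 with quantile normalisation, and 5 and 4 without dd control 10 d replicates 3 and 4. In leaves 0 of the 20 neighbours rose and 1 fell with head removal, beside 4.32% and 7.05% of all leaf genes. The fall was that of Sobic.003G133700, a phosphate transporter (-0.26 ± 0.07, adjusted p = 0.0088, limma), a call that was lost with both other scalings. Among those higher at 10 d in leaves was Sobic.003G130000, the import receptor subunit TOM40 (0.94 ± 0.16, adjusted p = 0.000205, limma). With day 8 of the leaf neighbours were higher and 1 lower at 10 d, beside 17.8% and 3.69% of all leaf genes. Both other scalings gave 4 higher and 1 lower.

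The tables give 3 other genes the same family description in stems and 2 in leaves. The largest in stems, Sobic.005G024800 at a mean of 163 TPM, fell with head removal by 0.46 on the log2 scale (SE 0.09, adjusted p = 0.000234) and stood at -0.73 ± 0.10 at 10 d (adjusted p = 1.25e-06, limma), with no genotype call (0.06 ± 0.10, adjusted p = 0.678). Sobic.003G125701, also on chromosome 3, averaged 81.6 TPM and was lower at 10 d, with a difference of -1.64 ± 0.17 (adjusted p = 6.41e-08), beside -0.47 ± 0.17 with head removal (adjusted p = 0.0241) and 0.10 ± 0.17 with genotype (adjusted p = 0.687, limma). Sobic.005G024700 shared a direction with the pair in genotype. At a mean of 12.9 TPM it was higher in dd stems by 0.48 ± 0.13 (adjusted p = 0.00829) and higher at 10 d by 0.54 ± 0.13 (adjusted p = 0.00195), with 0.19 ± 0.13 for head removal (adjusted p = 0.232, limma). Its genotype difference lay at 3 d, with 14.4 ± 2.63 TPM in dd and 8.16 ± 2.17 TPM in DD after head removal (SD, n = 3 and 4) and 13.6 ± 3.97 TPM in dd and 6.33 ± 0.60 TPM in DD controls (SD, n = 4 each), and whether the days differ was not tested. In leaves Sobic.003G125701 averaged 182 TPM and Sobic.005G024800 28.5 TPM, and neither passed with treatment, genotype or day (limma, with 1 of the 6 differences at an unadjusted p under 0.05, that of Sobic.005G024800 with genotype at -0.39 ± 0.13, adjusted p = 0.0448).

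Over the wider superfamily, 36 other genes in stems by their descriptions, more calls were falls than rises, as over all stem genes in the same fit, where 38.0, 29.0 and 27.2% of the calls for treatment, genotype and day were higher. Of all stem genes 14.4% rose and 23.5% fell with head removal, 5.17% and 12.7% in dd, and 8.84% and 23.7% at 10 d. With head removal 3 of the 36 rose and 15 fell (median -0.22 beside -0.06 over all genes), in dd 1 rose and 8 fell (median -0.17 beside -0.06), and at 10 d 3 were higher and 14 lower (median -0.28 beside -0.09). Median-of-ratios scaling gave 3 and 12 with head removal, 4 higher and 5 lower in dd, and 3 and 10 with day, and quantile normalisation 4 and 4 in dd. Genes called included Sobic.001G309900 with head removal (-1.37 ± 0.25, adjusted p = 6.75e-05) and in dd (-0.91 ± 0.25, adjusted p = 0.00801), Sobic.001G543500 with head removal (-1.19 ± 0.21, adjusted p = 4.62e-05) and in dd (-0.84 ± 0.21, adjusted p = 0.00438, limma throughout), and, with head removal, Sobic.005G037300 (-1.16 ± 0.28, adjusted p = 0.00112) and Sobic.007G192500 (-1.08 ± 0.12, adjusted p = 5.67e-08). Of all leaf genes 4.32% rose and 7.05% fell with head removal, 4.7% and 0.738% in dd, and 17.8% and 3.69% at 10 d. Of the 40 superfamily genes in leaves 2 rose and 2 fell with head removal, 1 rose and 1 fell in dd, and 4 were higher and 4 lower at 10 d, with medians of -0.05, -0.04 and 0.08. For treatment in leaves median-of-ratios scaling gave 4 higher and 2 lower. For day median-of-ratios scaling gave 2 higher and 6 lower and a median of -0.01. The myo-inositol carrier Sobic.002G035200 was lower in dd leaves (-0.47 ± 0.10, adjusted p = 0.00463), and Sobic.002G278500 rose (0.78 ± 0.21, adjusted p = 0.00889) and Sobic.002G352800 fell with head removal (-0.71 ± 0.13, adjusted p = 0.00101, limma).

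Because a zinc complex was named as possible cargo, genes of zinc and iron handling were listed by description. Of 37 in stems 3 rose and 13 fell with head removal (median -0.11 beside -0.06 over all genes), 1 rose and 7 fell in dd (median -0.13 beside -0.06), and 5 were higher and 9 lower at 10 d (median -0.05 beside -0.09, and 0.04 with median-of-ratios scaling). Of all stem genes 14.4% rose and 23.5% fell with head removal, 5.17% and 12.7% in dd, and 8.84% and 23.7% at 10 d. Nicotianamine synthase, Sobic.001G151400, makes the metal chelator that binds zinc and iron, and it fell with head removal by 1.46 on the log2 scale (SE 0.24, adjusted p = 1.17e-05). A homologue of the vacuolar iron transporter, Sobic.006G276300, also fell (-1.33 ± 0.23, adjusted p = 3.22e-05), and was lower in dd (-0.91 ± 0.23, adjusted p = 0.00437). The zinc/iron transporter Sobic.001G339600 fell by 1.14 on the log2 scale with head removal (SE 0.17, adjusted p = 4.2e-06), and ferritin, Sobic.008G004800, which stores iron, was lower at 10 d (-0.75 ± 0.08, adjusted p = 1.48e-07, limma throughout). The 1 called higher in dd, Sobic.003G257900 (0.68 ± 0.14, adjusted p = 0.000754), entered the list by the words ferric reductase in a cytochrome b561 description. With either other scaling the list had no excess of falls in dd, with 2 higher and 2 lower under median-of-ratios and 3 and 2 under quantile normalisation. Without dd control 10 d replicates 3 and 4 it had 1 higher and 3 lower. In leaves 1 of 34 rose and 4 fell with head removal, 0 rose and 1 fell in dd, and 4 were higher and 1 lower at 10 d (2 and 3 with median-of-ratios scaling), with medians of -0.11, -0.11 and 0.06. The rise was that of a metallothionein, Sobic.005G228700, a metal-binding protein (0.58 ± 0.10, adjusted p = 0.000607, limma). Of all leaf genes 4.32% rose and 7.05% fell with head removal, 4.7% and 0.738% in dd, and 17.8% and 3.69% at 10 d.

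Sugar was the other possible cargo. Of 4 listed sugar carriers in stems, 2 were higher in dd, Sobic.004G099300 (0.79 ± 0.12, adjusted p = 8.33e-05) and Sobic.001G312900 (0.33 ± 0.08, adjusted p = 0.00415), both monosaccharide-sensing proteins, a family of tonoplast sugar carriers. SbSUT1 (Sobic.001G488700), a sucrose carrier, was lower in dd (-0.61 ± 0.14, adjusted p = 0.00252) and at 10 d (-0.89 ± 0.14, adjusted p = 2.03e-05). Of all stem genes 5.17% were higher and 12.7% lower in dd, 8.84% and 23.7% at 10 d, and 14.4% and 23.5% with head removal. With head removal 0 of the 4 carriers rose and 1 fell, Sobic.001G312900 (-0.29 ± 0.08, adjusted p = 0.00424, limma throughout). That count was 1 rise and no fall with median-of-ratios scaling, and neither without dd control 10 d replicates 3 and 4, where 1 of the 4 was higher in dd. In leaves 0 of 3 passed with treatment or genotype (limma, 3 and 1 at an unadjusted p under 0.05), and at 10 d Sobic.004G099300 was higher (0.60 ± 0.16, adjusted p = 0.0048) and SbSUT1 lower (-0.69 ± 0.07, adjusted p = 4.9e-06, limma), with no gene higher under either other scaling. Of all leaf genes 4.32% rose and 7.05% fell with head removal, 4.7% and 0.738% in dd, and 17.8% and 3.69% at 10 d.

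The genes whose stem pattern was most like that of the pair were not the same for its members. Over 29 stem samples, among the 15793 genes that averaged 3 TPM or more, Pearson's r on the log2 scale was highest with Sobic.003G131600 for Sobic.001G167900, of an aldo-keto reductase family (0.93), Sobic.008G078400, an outer envelope protein (0.91), Sobic.004G328400, a translation initiation factor IF-3 (0.90), Sobic.002G109000, a tetratricopeptide repeat protein (0.89), and Sobic.004G274100, of unknown function (0.88). All 5 had positive differences with head removal and in dd and negative ones at 10 d, signs that follow from their choice by likeness to Sobic.003G131600. With Sobic.003G131800 they were Sobic.001G294600, a polyadenylate-binding protein (0.94), Sobic.009G073000, a glutaredoxin (0.93), Sobic.006G255800, with no description (0.92), Sobic.002G159100, the light-harvesting protein LHCB7 (0.92), and Sobic.001G382800, the iron-sulphur cluster assembly ATPase sufC (0.91). These 5 had positive differences with head removal, in dd and at 10 d, again signs that follow from the choice. Of the leaf blade markers Sobic.002G159100 was the 1 gene called higher in dd stems (0.31 ± 0.07, adjusted p = 0.00185, limma). The neighbours themselves correlated at 0.51, rank 1799 of the 15793 for Sobic.003G131600 and rank 1882 for Sobic.003G131800.

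In leaves, over 24 samples and 15240 genes, the genes most like Sobic.003G131600 were Sobic.005G204200, a peptide chain release factor (0.93), Sobic.010G002000, a glycyl-tRNA synthetase (0.92), Sobic.003G017100, an ABC transporter (0.91), Sobic.003G219200, of an uncharacterised family (0.91), and Sobic.006G238200, a hydrolase (0.91). All 5 had negative differences with head removal, between -0.66 and -0.32. The genes most like Sobic.003G131800 were Sobic.001G084000, a WRKY factor (0.92), Sobic.007G215100, with no description (0.89), Sobic.002G421400, a NAC factor (0.89), Sobic.001G342600, a nucleoredoxin (0.89), and Sobic.010G087700, a small heat-shock protein (0.89). All 5 had positive differences with head removal, between 0.67 and 1.38. The pair correlated at -0.59 in leaves, rank 14539 for Sobic.003G131600. These likenesses are descriptions over samples that share their groups, and the shared signs follow from the choice by likeness. Spearman's rho or deviations from group means returned 0 to 4 of the 5 genes in each case.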

How the data were processed

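The authors deposited TPM values from Illumina reads, keeping genes that passed 3 TPM in 2 or more samples. The submitters' notes name FastQC, Trimmomatic and STAR, and how TPM was computed, versions and the genome build are not given in the sources used here. Columns were matched to samples by title, and 3 stem and 8 leaf samples with no column were not analysed here. The authors' own comparisons (DESeq2 fold changes and p-values) were not used.

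Stems and leaves were fitted apart in R 4.3.3 with limma 3.58.1 (eBayes with a trend) on log2(TPM + 1), a pseudocount of 1. The terms were additive, after the study's model: treatment, genotype, day. Interactions and single combinations came from 8 group means. The code was tested on simulated data. Correlations used 100000 permutations, two-sided, adjusted over 4.

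The 2 genes and the lists were chosen with earlier results of these data known. Lists came from description patterns, family words and identifiers. Named are both genes, their own family, up to 4 genes per list, organ and factor by size of difference past the test, and the 5 genes most like each. Other settings tried were a pseudocount of 0.1 or 3, only genes averaging 10 TPM or more, scaling by median of ratios, quantile normalisation, no trend, robust variances, 8 group means, a replicate block, other thresholds, a width of 50 identifier steps, and omissions.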

Additional observations from a re-analysis of the deposited data

Results flagged for a closer look

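The treatment difference of Sobic.003G131600 in dd plants had opposite signs in the 2 organs. At 10 d every head removal sample was above every control in stems (1.53 on the log2 scale) and below every control in leaves (-0.86). At 3 d the same held, with 1.04 in stems and -0.55 in leaves. The difference between organs was not tested, since the tables were normalised separately, and the stem values are among those that chose the gene. No sample stood apart from its group by Dixon's criterion in the 10 checks made, both genes in each of the 5 stem groups of 4 samples.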

How the results depend on the processing

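All values are log2 differences unless named. For Sobic.003G131600 the stem treatment difference was 1.46 with a pseudocount of 0.1 and 0.76 with 3. Its leaf treatment call (-0.47) was lost with a replicate block (-0.41, adjusted p = 0.0113, limma). With DD leaf replicates 2 and 3 from 3 d after head removal left out the difference was -0.47, and no call is read there. Over single omissions the difference ran between -0.51 and -0.43, and the call was lost in 2 of 24. The leaf treatment difference of Sobic.003G131800 passed with median-of-ratios scaling (1.01, adjusted p = 0.00994, limma) and ran between 0.86 and 1.09 over single omissions. Over these omissions its adjusted p was 0.0061 to 0.0267 (limma). The stem count of neighbour genes called with genotype, 3, was 1 with a mean of at least 10 TPM, 7 at an adjusted p under 0.05, 1 with a difference of at least 1, and 13 within 50 identifier steps. The leaf count, 0, was 1 with a replicate block, 2 at an adjusted p under 0.05, 1 within 50 steps, and 0 to 1 over single omissions. The correlation of the pair in dd stems was 0.38 within groups, 0.45 on TPM and 0.54 without 2 samples (0.66 over all), and that in dd leaves -0.52 within groups (-0.82 over all). A mean of at least 10 TPM leaves no value for Sobic.003G131600 in stems or Sobic.003G131800 in leaves. The stem treatment call of Sobic.003G131800 held in all alternatives, between 1.22 and 1.47. Of stem calls 38.0, 29.0 and 27.2% were higher for treatment, genotype and day, against 50.8, 54.1 and 51.2% with median-of-ratios scaling, and of leaf calls 38.0, 86.4 and 82.8%, against 48.8, 66.5 and 53.8%. Replicate numbers do not pair the samples: same-numbered pairs had a median correlation of -0.01 in stems and -0.06 in leaves, with 30 of 91 and 16 of 60 over 0.1. The replicate block changed no other call of the pair. TPM alone limits what can be said of low values such as those of Sobic.003G131600 in DD control stems.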
